A study of Mus musculus with 21 samples.

Results

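Glycolysis and lactate fermentation are carried out by enzymes that exist as families of isozymes, and in mice several steps have a second gene that works in the male germ line. Gapdhs, Pgk2 and Ldhc encode the germ-cell forms of glyceraldehyde-3-phosphate dehydrogenase, phosphoglycerate kinase and lactate dehydrogenase, whereas Gapdh, Pgk1, Ldha and Ldhb encode the forms of somatic tissues. Sperm use glycolysis in the flagellum, while the mouse oocyte and early embryo are known to rely on pyruvate and to increase their use of glucose towards the blastocyst. Hexokinase 1, which phosphorylates glucose, aldolase A, which splits fructose-1,6-bisphosphate, and muscle pyruvate kinase, which makes pyruvate, act upstream and downstream of these steps and are encoded by Hk1, Aldoa and Pkm.

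These 10 genes were followed from the gametes to the blastocyst. They were taken by name, and each was given the long-read transcripts whose exons overlapped its annotated exons on the same strand. They held 22 of 22612 transcripts and were 10 of 10917 genes with a transcript. The level of a gene was the sum of its transcripts as TPM, its share of all transcripts in a library after correction for length, so that levels of different genes can be set side by side. The files give no read depth, and no counting interval was made.

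The 14 short-read libraries came from 7 stages with 2 replicates each. For each stage 1 long-read pool was also sequenced. The paper states that it was a mix of the amplified cDNA of both batches, part of which gave the short reads. Long reads are therefore not independent of the short-read libraries of their stage. Sperm were epididymal sperm of DBA/2J males, as the labels name them, although the protocol writes DBA/2N. Oocytes were metaphase II eggs of C57/BL6J females aged 3 to 5 weeks that had been superovulated with PMSG and hCG, and they were lysed 20 h after hCG. Embryos came from such females mated with these males, were taken from the oviduct, grown in KSOM medium and lysed as 1-cell embryos at 24 to 26 h, 2-cell embryos at 46 to 48 h, 4-cell embryos at 54 to 58 h, 8-cell embryos at 68 to 70 h and blastocysts at 94 to 96 h. No genetic change is labelled in any group. Every library was a pool of gametes or embryos, so that the spread seen is between pools and not between single embryos. The tests of change between stages estimate it from all stages of a fit together. The tests of ratios take in the spread across stages too. In such bulk samples fewer cells of a type and less RNA per cell cannot be told apart.

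Stage markers were in place. The summed TPM of 8 late germ cell genes was 17434 to 21201 in sperm and at most 17.1 in other stages, that of 8 oocyte genes was 4755 to 16545 in oocytes, and that of 6 blastocyst genes was 9617 to 35611 in blastocysts. The sperm libraries also held genes of other cells of the epididymis and blood. All 5 leukocyte and erythrocyte genes were above 1 TPM in both, with a sum of 12103 in replicate 1 and 6406 in replicate 2, and all 3 measured epididymal genes were too, with sums of 2110 and 347, of a list of 6. The epididymal sum was at most 24.2 in any other stage. The leukocyte and erythrocyte sum was 0.365 to 6.14 in oocytes and 1-cell embryos, 23.2 and 392 in 2-cell embryos, 116 and 152 in 4-cell embryos, 34.8 and 45.8 in 8-cell embryos and 5.79 to 6.89 in blastocysts. Most of that sum in 2-cell and 4-cell embryos was Hba-a1, at 18.6 and 368 TPM and at 95.5 and 145 TPM. The part of epididymal and blood cells in the sperm values below was not tested. The replicates of sperm and 2-cell embryos stood furthest apart, with correlations across genes of 0.76 and 0.74 against 0.90 to 0.98 in other embryonic stages, the oocyte at 0.91 included. Among members above 1 TPM the median ratio of the higher to the lower replicate was 6.24 in sperm and 4.17 in 2-cell embryos but 1.16 in 4-cell embryos.

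**Figure D1:**
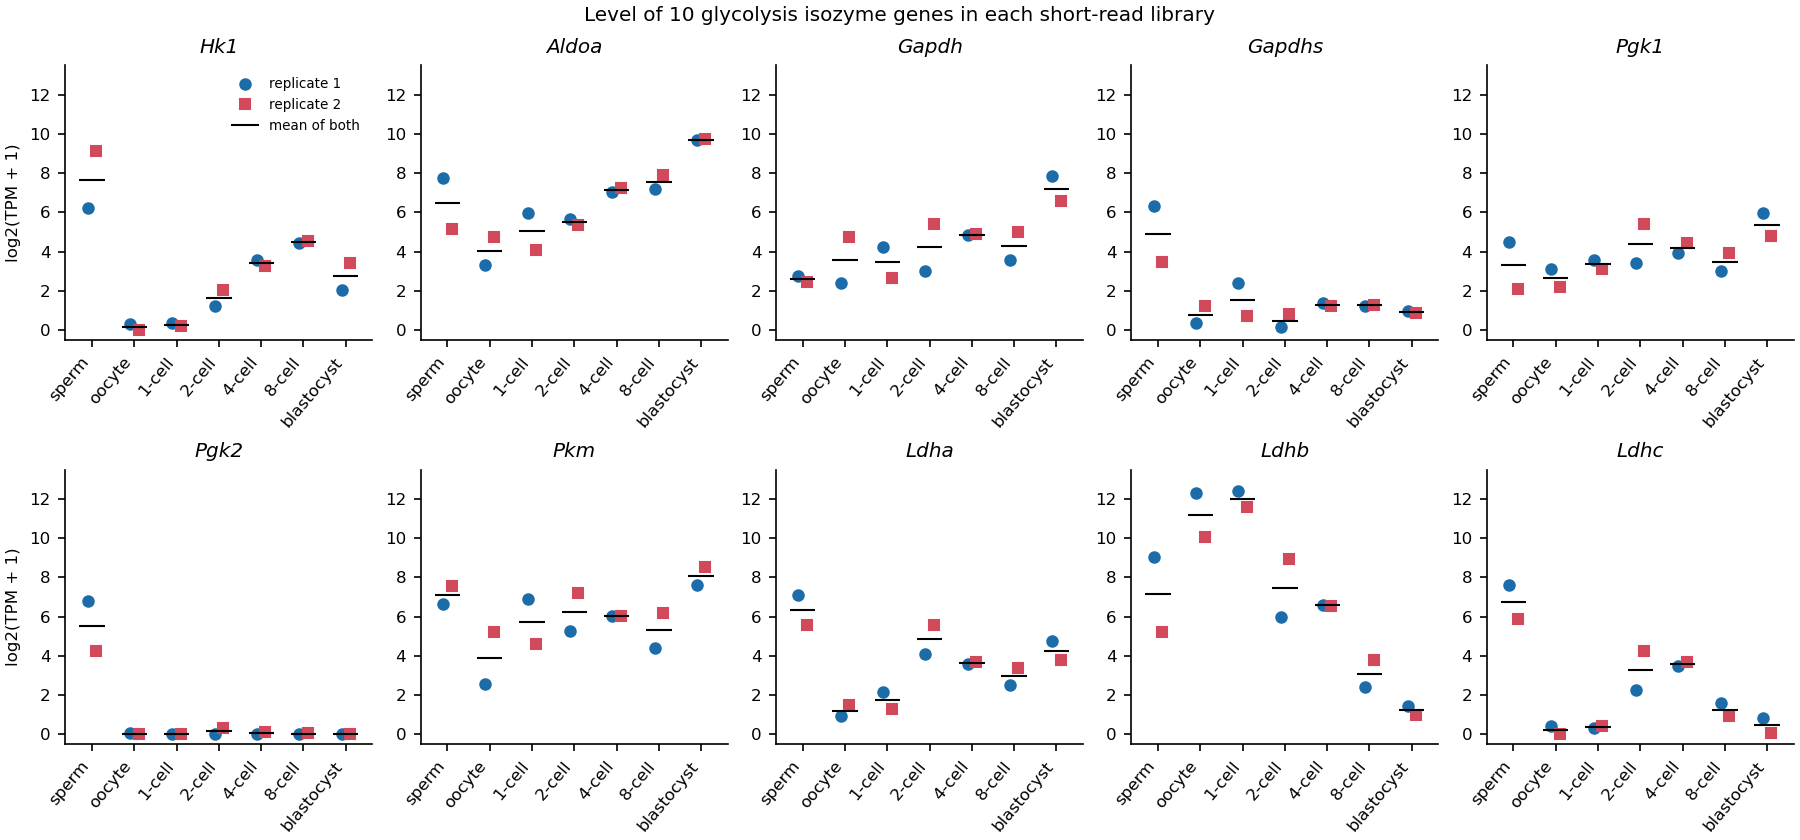
Level of each of the 10 genes as log2(TPM + 1) against stage, with a circle for replicate 1, a square for replicate 2 and a bar for their mean. Pgk2 stood above 4 only in sperm, Ldhb fell from about 12 in 1-cell embryos to about 1 in blastocysts, and Aldoa was highest in blastocysts.

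Sperm and oocyte differed in most of these genes, with the germ-line genes high in sperm and Ldhb high in the oocyte. Changes between stages were tested with limma on log2(TPM + 1) over all genes, with a Benjamini-Hochberg adjusted p under 0.05 as the threshold. In sperm against oocyte 8 of the 10 genes passed, 7 of them higher in sperm and 1 lower. The 7 include Pgk2, which entered the test through its sperm values alone. The background was high, since 53.6% of all 10735 genes tested passed, 36.2% as higher and 17.4% as lower in sperm. The median change of the 10 genes was 3.67 on the log2 scale beside 0.90 over all genes, and quantile normalization moved the latter to -0.01, with the genes called higher going from 3890 against 1863 lower to 2854 against 2873. It changed the values of the 10 genes too, of which 6 were then called higher and 0 lower. The 3.67 belongs to the values before it and is not to be set against -0.01.

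The 3 germ-line genes were all higher in sperm than in any other stage. Pgk2 was at 109.8 and 17.8 TPM in the 2 sperm libraries and at most 0.227 TPM in the 12 others, of which 8 were at 0. Gapdhs was at 78.8 and 9.99 TPM in sperm and between 0.0969 and 4.21 TPM elsewhere. Ldhc was at 197 and 56.8 TPM in sperm and between 0 and 17.8 TPM elsewhere. Sperm replicate 1 was the higher for all 3 genes, and no library of another stage reached the lower sperm replicate. The differences from the oocyte were 5.49 ± 0.63 (SE) on the log2 scale for Pgk2, 4.10 ± 0.80 for Gapdhs and 6.54 ± 0.77 for Ldhc, with adjusted p of 3.88e-06, 4.71e-04 and 4.91e-06 (limma, n = 2 each). Pgk2 passed the filter on low values through sperm alone, so that its call had to follow and adds no support, and without either sperm library it could no longer be tested.

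Pgk2 lies at chr17:40207015-40208640 (minus strand, mm10), and its 1 merged transcript of 1609 bases was a single exon within the annotated one. The 250 bases before its RefSeq start (GRCm38.p6, chr17:40208610-40208859, minus strand) are shown because its transcript was the one nearest to sperm alone, with CCAAT boxes in capitals. They lie 86 and 52 bases before the start.
Pgk2: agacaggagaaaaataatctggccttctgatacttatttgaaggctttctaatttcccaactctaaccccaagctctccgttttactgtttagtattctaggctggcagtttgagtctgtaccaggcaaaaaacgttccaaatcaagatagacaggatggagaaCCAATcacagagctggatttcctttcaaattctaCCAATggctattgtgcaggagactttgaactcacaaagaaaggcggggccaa

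Gapdhs (chr7:30729775-30743681, minus strand) had 1 merged transcript of 10 exons and 1137 bases, which began 1564 bases inside the nearest annotated start and followed the introns of Gapdhs-201 and Gapdhs-203 from there. Long reads of both Pgk2 and Gapdhs were found in the sperm pool and in no other of the 7 pools, with 2 and 1 transcripts.

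Genes shared with somatic tissue were high in sperm too. Hk1 was at 72.5 and 566 TPM in sperm and at 0.216 and 0 TPM in oocytes, a difference of 7.53 ± 0.86 (SE, adjusted p = 3.54e-06), and here replicate 2 was the higher. Its only merged transcript (chr10:62269108-62286415, minus strand) held 9 exons of the 3′ part of the gene, so that it cannot tell a germ-cell from a somatic first exon. Ldha was at 138 and 46.0 TPM in sperm and at 0.876 and 1.83 TPM in oocytes, a difference of 5.13 ± 0.80 (adjusted p = 6.43e-05). Pkm was at 99.98 and 189.7 TPM in sperm against 4.89 and 35.9 TPM, and Aldoa at 218 and 34.6 TPM against 8.88 and 26.2 TPM, with adjusted p of 0.0148 and 0.0363. Ldhb was the gene lower in sperm, at 529 and 36.7 TPM against 5008 and 1066 TPM in oocytes, a difference of -4.03 ± 1.19 (adjusted p = 0.00888).

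Gapdh and Pgk1 did not pass. Pgk1 was at 21.8 and 3.25 TPM in sperm and at 7.60 and 3.63 TPM in oocytes (0.64 ± 0.91, adjusted p = 0.568). The calls of Gapdhs, Ldhc, Hk1 and Ldha were kept under every alternative run. That of Aldoa was lost without sperm replicate 1 (1.12, adjusted p = 0.366), without oocyte replicate 1 (1.70, adjusted p = 0.235), without any 1 of the 4-cell and 8-cell libraries, and in a fit on the 4 libraries (adjusted p = 0.0937). Without oocyte replicate 1 those of Ldhb (-2.92, adjusted p = 0.106) and Pkm (1.91, adjusted p = 0.200) were lost too, as they were without sperm replicate 2 (-2.13 with adjusted p = 0.170 and 2.78 with adjusted p = 0.0927). Quantile normalization ended the calls of Ldhb (-3.32, adjusted p = 0.0518) and Aldoa (1.99, adjusted p = 0.0901), and weighting libraries by stage those of Aldoa and Pkm (adjusted p of 0.116 and 0.0990).

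Gapdh, the common reference gene, could not be measured by its own locus alone. The merged transcripts held 7 transcripts of other loci, all of annotated processed pseudogenes, that matched a Gapdh transcript at 90.3% identity or more over at least 50.8% of their length. The one with the highest mean level in every stage was Gm13394, which matched at 99.9% over 100% of its length and took 5.56 to 397 TPM, more than Gapdh itself in 11 of the 14 libraries. The Gapdh locus (chr6:125161715-125166467, minus strand) was at 5.67 and 4.49 TPM in sperm, 4.18 and 26.0 TPM in oocytes, 18.0 and 5.29 TPM in 1-cell embryos, 6.98 and 41.7 TPM in 2-cell embryos, 27.3 and 29.1 TPM in 4-cell embryos, 10.9 and 30.7 TPM in 8-cell embryos and 232 and 93.3 TPM in blastocysts. With the copies added it was at 167 and 121 TPM in sperm and 18.7 and 45.4 TPM in oocytes. The locus held 3.39% and 3.71% of that sum in sperm and 18.3% to 57.3% elsewhere. So the difference of sperm against oocyte went from -0.97 ± 0.98 (adjusted p = 0.416) at the locus to 2.24 ± 0.85 (adjusted p = 0.0349) with the copies, and Gapdh is reported as uncertain below.

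**Figure D2:**
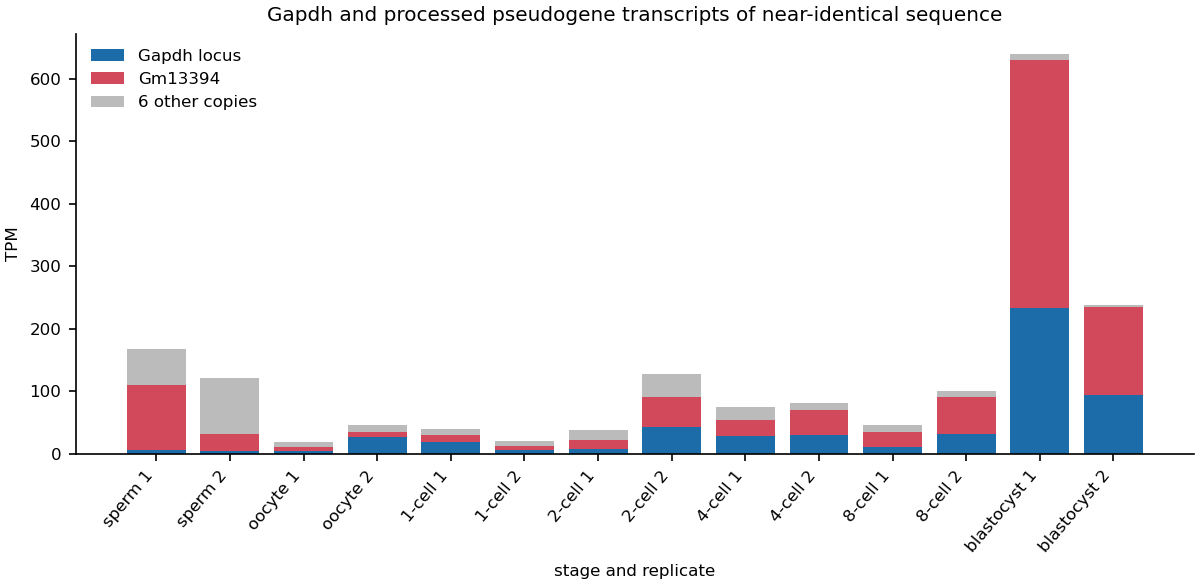
TPM of the Gapdh locus, of Gm13394 and of 6 other processed pseudogene transcripts, stacked from 0 for each of the 14 libraries. The Gapdh locus held under 4% of the stack in both sperm libraries, and the blastocyst stacks of 640 and 238 TPM were the highest.

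In sperm Pgk2 exceeded Pgk1 and Ldhc exceeded Ldha, whereas Ldhc stood below Ldhb in replicate 1 (197 against 529 TPM) and above it in replicate 2 (56.8 against 36.7 TPM). The log2 ratio of Pgk2 to Pgk1, with 1 TPM added to both, was 2.28 and 2.14 in the sperm libraries and between -5.97 and -2.21 in the other 12. That of Ldhc to Ldha was 0.51 and 0.30 in sperm and between -3.93 and 0.02 elsewhere, where the 4-cell libraries came nearest. That of Gapdhs to Gapdh was 3.58 and 1.00 in sperm and between -6.90 and -1.86 elsewhere, but with the Gapdh copies added it was -1.08 and -3.47 in sperm, below 0 as in every other library, and sperm replicate 2 then fell within the range of the rest.

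The differences in the mean log2 ratio between sperm and the other stages were 6.08 for Pgk2, 1.98 for Ldhc and 5.85 for Gapdhs. Each gave p = 0.0220 in a two-sided exact permutation test over 91 assignments, which is the smallest p that 2 against 12 libraries allow, and 0.0220 after adjustment over the 4 ratios tested. With the Gapdh copies added the third difference was 2.84 (exact permutation p = 0.0440). The 12 libraries are of 6 stages and not replicates of 1 group, and with either sperm library left out the smallest p the test allows is 0.154.

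**Figure D3:**
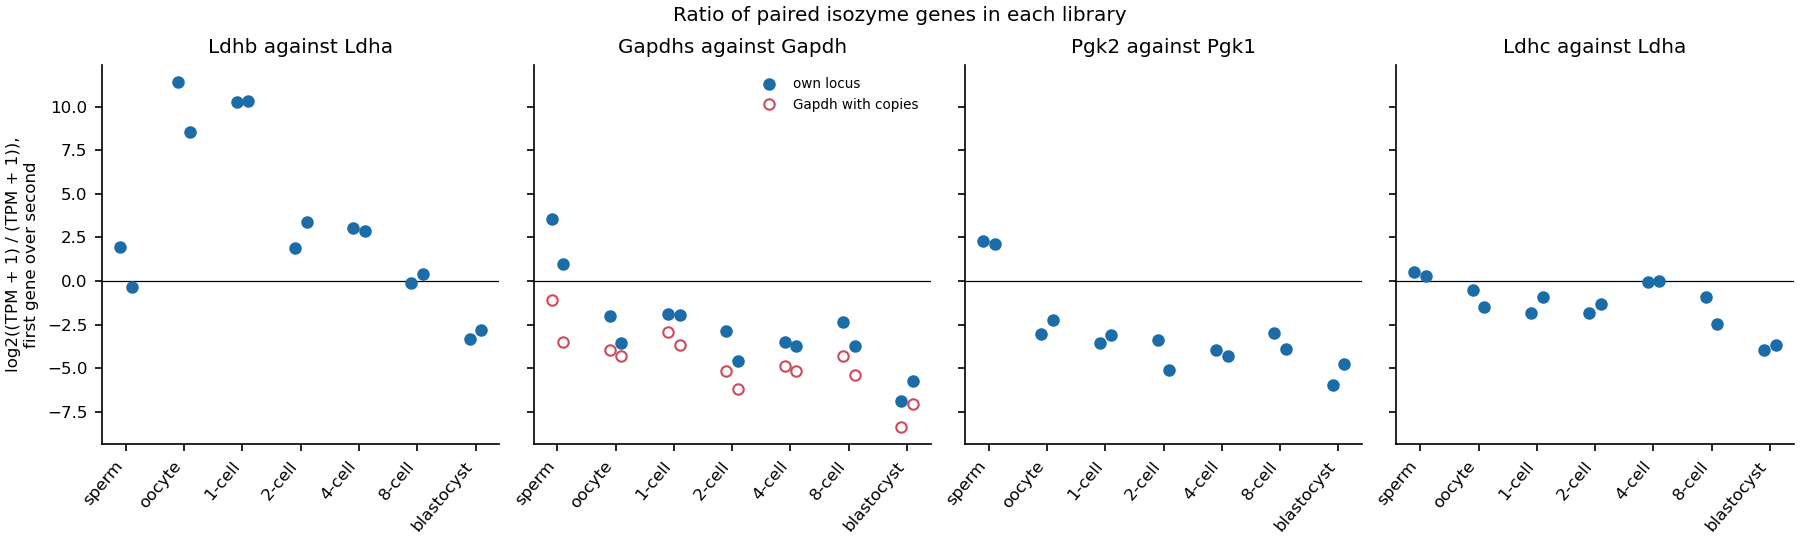
Log2 ratio of paired genes, with 1 TPM added to each, against stage, and 1 point per library. Filled points use each gene's own locus and open points add the copies to Gapdh. Pgk2 exceeded Pgk1 in sperm only, and Ldhb exceeded Ldha by 8.56 to 11.38 in oocytes and 1-cell embryos.

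The lactate dehydrogenase genes changed places during cleavage. Transcripts of Ldhb, which encodes lactate dehydrogenase B, the form favoured in oxidative tissues, dominated in the eggs. Protein was not measured. Ldhb was at 5008 and 1066 TPM in oocytes and 5378 and 3081 TPM in 1-cell embryos, where it ranked between place 17 and place 146 of 10917 genes. It was at 62.2 and 489 TPM in 2-cell embryos, 94.9 and 93.1 TPM in 4-cell embryos, 4.27 and 12.8 TPM in 8-cell embryos and 1.74 and 0.964 TPM in blastocysts. The replicates of each later stage lay below those of the stage before it, apart from the 2-cell and 4-cell stages, which overlapped, and the oocyte and 1-cell stages. Against the 1-cell embryo Ldhb fell by 4.53 ± 0.99 (log2) in 2-cell embryos (adjusted p = 0.00363), and from oocyte to blastocyst by 9.96 ± 0.99 (adjusted p = 5.76e-06). Both calls were kept under every alternative.

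Ldha, which encodes the form that favours lactate, moved the other way. It was at 0.876 and 1.83 TPM in oocytes, 3.45 and 1.45 TPM in 1-cell embryos and 16.3 and 46.5 TPM in 2-cell embryos, a rise of 3.12 ± 0.73 (adjusted p = 0.00531). It then stood at 10.8 and 11.7 TPM in 4-cell embryos, 4.75 and 9.47 TPM in 8-cell embryos and 26.1 and 12.6 TPM in blastocysts, 3.05 ± 0.73 above the oocyte (adjusted p = 0.00289). The rise at the 2-cell stage was lost without 1-cell replicate 2 (2.69, adjusted p = 0.0611) and in a fit on the 4 libraries alone (adjusted p = 0.0520). The erythrocyte gene Hba-a1 was at 0.864 and 0.898 TPM in 1-cell embryos and 18.6 and 368 TPM in 2-cell embryos. In 4-cell embryos it was at 95.5 and 145 TPM. The other erythrocyte gene, Hbb-bs, did not follow, at 0 and 1.95 TPM, 1.64 and 1.65 TPM, and 0 in both 4-cell libraries. Of the leukocyte genes, Lyz2 was at 0.250 and 0.208 TPM in 1-cell and 2.28 and 6.90 TPM in 2-cell embryos. Cd52 was at 5.03 and 1.36 TPM and at 0.712 and 15.9 TPM there. Ptprc stayed at or under 0.0617 TPM in all 3 stages. Both Hba-a1 and Ldha were higher in 2-cell replicate 2, as was Ldhc, and the part of such RNA in the changes at this step was not tested.

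As a share of Ldha, Ldhb and Ldhc together, Ldhb made up 61.2% and 26.3% in the 2 sperm libraries, beside 22.8% and 40.7% for Ldhc. Ldhb made up at least 99.8% in oocytes and 1-cell embryos, 75.5% and 88.4% in 2-cell embryos, 81.9% and 79.9% in 4-cell embryos, 38.6% and 55.2% in 8-cell embryos and 6.08% and 7.10% in blastocysts. In blastocysts Ldha took 91.2% and 92.5%. The total of the 3 genes fell from 1067 to 5382 TPM in the oocyte and 1-cell libraries to 11.1 to 28.6 TPM in the 8-cell and blastocyst libraries, so that the later shares were taken of a much smaller sum. The log2 ratio of Ldhb to Ldha averaged 10.12 ± 1.17 (SD, n = 4) in oocytes and 1-cell embryos and 0.02 ± 2.70 (SD, n = 6) from the 4-cell stage to the blastocyst. The difference of 10.10 gave p = 0.00952 in a two-sided exact permutation test over 210 assignments, the smallest it allows, and 0.0220 after adjustment over the 4 ratios. The libraries on each side come as pairs from several stages and are not replicates of a single group, which the test does not take into account. The later 6 libraries spanned -3.31 to 3.03, with the 4-cell libraries highest and the blastocysts lowest.

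**Figure D4:**
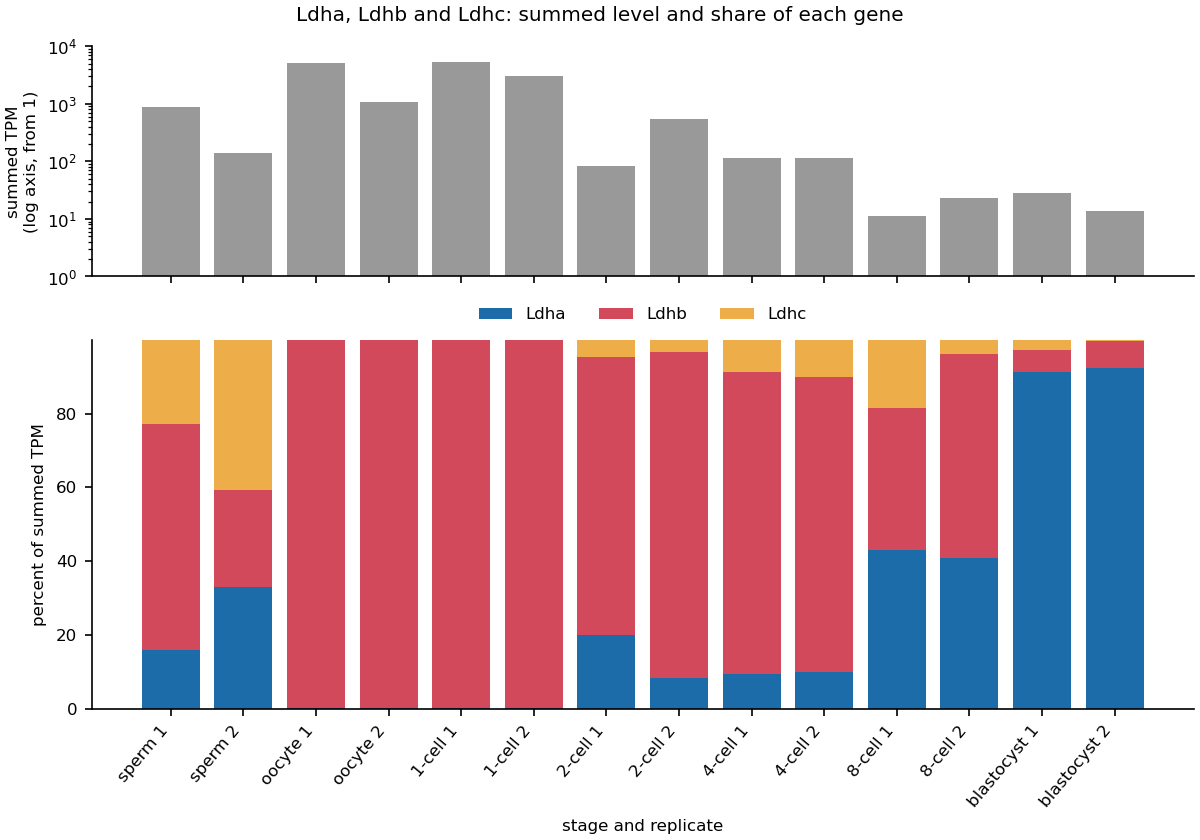
Upper panel, summed TPM of Ldha, Ldhb and Ldhc on a log axis that starts at 1. Lower panel, percent of that sum held by each gene, for the 14 libraries in order of stage. Ldhb filled the oocyte and 1-cell bars, and Ldha over 90% of both blastocyst bars.

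Of Ldhb (chr6:142490249-142507957, minus strand) 3 isoforms were found. The full-length one of 8 exons, with the introns of Ldhb-201, held most of the signal, at 4829 and 1027 TPM in oocytes. A form of 7 exons that joined annotated introns in a way not annotated was at 149 and 34.2 TPM there and at 223 and 118 TPM in 1-cell embryos. A form of 4 exons with 1 unannotated intron was at 29.4 and 4.28 TPM and at 63.9 and 20.5 TPM. All 3 were lower in 2-cell than in 1-cell embryos (-4.55, -3.79 and -4.24 on the log2 scale, adjusted p of 0.00730, 0.0147 and 0.00319), where 28% of all 20250 transcripts tested passed, 22.9% as higher and 5.11% as lower. The 1-cell pool alone held 6 long-read transcripts of Ldhb, the oocyte pool 2, and the blastocyst pool none.

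Ldha and Ldhc lie next to each other on chromosome 7 (chr7:46841475-46855627 and chr7:46861203-46878142, both plus strand). Each had an isoform that began further downstream and was seen mainly in some stages. The Ldha isoform with the upstream start, at 46845840, was at 110 and 27.2 TPM in sperm and held at least 94.4% of Ldha in every library other than sperm in which the gene reached 1 TPM. The isoform with the downstream start, at 46847073, matched Ldha-201 and Ldha-210 in its introns. It was at 28.2 and 18.8 TPM in sperm, 20.4% and 40.8% of the gene, and at most 1.99 TPM in any other library. Both oocyte libraries were at 0. It passed the filter on low values only through sperm, and its test is therefore not given. Its long read was found in the sperm pool and in no other.

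Sperm and cleavage embryos also held different main forms of Ldhc. In sperm the annotated form of 8 exons, Ldhc-201, was at 180 and 46.5 TPM and held 91.3% and 81.9% of the gene. From the 1-cell to the 2-cell stage Ldhc rose by 2.90 ± 0.64 (adjusted p = 0.00394), from 0.247 and 0.319 TPM to 3.85 and 17.8 TPM, and it was at 10.1 and 11.8 TPM in 4-cell embryos before 2.04 and 0.885 TPM in 8-cell embryos. In these embryos another form led, which was picked out after its values were seen since it stayed under the 10 TPM set for isoforms to be named. It begins at chr7:46866109, 4702 bases downstream of the nearest annotated start, and has 7 exons and 1 unannotated intron. Whether this end is a start of transcription was not tested. It was at 2.42 and 10.7 TPM in 2-cell embryos and 4.57 and 8.61 TPM in 4-cell embryos. That was 62.8% and 60.3% of the gene at the 2-cell stage and 45.1% and 72.9% at the 4-cell stage, against 2.32% and 10.8% in sperm. The short form rose by 2.46 ± 0.62 from the 1-cell to the 2-cell stage and the annotated form by 1.73 ± 0.47 (adjusted p of 0.0120 and 0.0171). The short form was picked for its values at these stages, so its test adds no support. From oocyte to blastocyst the annotated form reached 1 TPM only at the 2-cell and 4-cell stages, through which it passed the filter. The 4-cell pool held a long read of the short form as its only Ldhc transcript, and the sperm pool held the other 3 forms.

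The promoters of both Ldha starts and of the start of Ldhc-201 are shown so that the shared letters can be compared. They are the 250 bases before the RefSeq starts (GRCm38.p6, plus strand), at chr7:46845554-46845803 and chr7:46846832-46847081 for Ldha and chr7:46861013-46861262 for Ldhc. No window is shown for the short Ldhc form that begins at chr7:46866109. Capitals mark matches on either strand to 5 motifs. These were the GC box GGGCGG, the CCAAT box, the TATA box searched as TATAAA, the cyclic AMP response element TGACGTCA, and its first letters TGACG, which every full element also holds.
Ldha upstream: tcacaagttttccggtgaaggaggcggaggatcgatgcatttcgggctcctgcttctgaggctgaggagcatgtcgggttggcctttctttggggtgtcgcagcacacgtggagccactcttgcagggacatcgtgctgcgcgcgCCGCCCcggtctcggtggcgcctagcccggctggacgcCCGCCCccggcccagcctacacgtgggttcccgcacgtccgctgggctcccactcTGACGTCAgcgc
Ldha downstream: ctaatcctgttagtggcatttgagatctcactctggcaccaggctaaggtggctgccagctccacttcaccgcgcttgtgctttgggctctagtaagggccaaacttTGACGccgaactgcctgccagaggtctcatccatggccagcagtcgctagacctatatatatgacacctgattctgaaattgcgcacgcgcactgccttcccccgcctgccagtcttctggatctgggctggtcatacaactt
Ldhc: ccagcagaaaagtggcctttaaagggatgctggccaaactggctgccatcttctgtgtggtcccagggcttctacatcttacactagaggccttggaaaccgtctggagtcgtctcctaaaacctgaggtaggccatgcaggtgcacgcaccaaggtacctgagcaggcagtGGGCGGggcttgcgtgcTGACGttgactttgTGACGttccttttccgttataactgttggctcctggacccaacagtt
The Ldhc window held a GC box 78 bases before the start and TGACG at 61 and 47 bases. The upstream Ldha window held the full TGACGTCA at 12 bases and GC boxes at 105 and 67 bases, and the downstream one TGACG at 143 bases. Over 32851 RefSeq windows of the same length 17.8% held TGACG, 1.55% the full element, 32.7% a GC box, 33.8% a CCAAT box and 12.4% a TATA box. Of the 17 windows of the 10 genes, 3 held TGACG, 1 the full element, 6 a GC box, 6 a CCAAT box and 0 a TATA box. These are matches of letters and not shown sites.

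**Figure D5:**
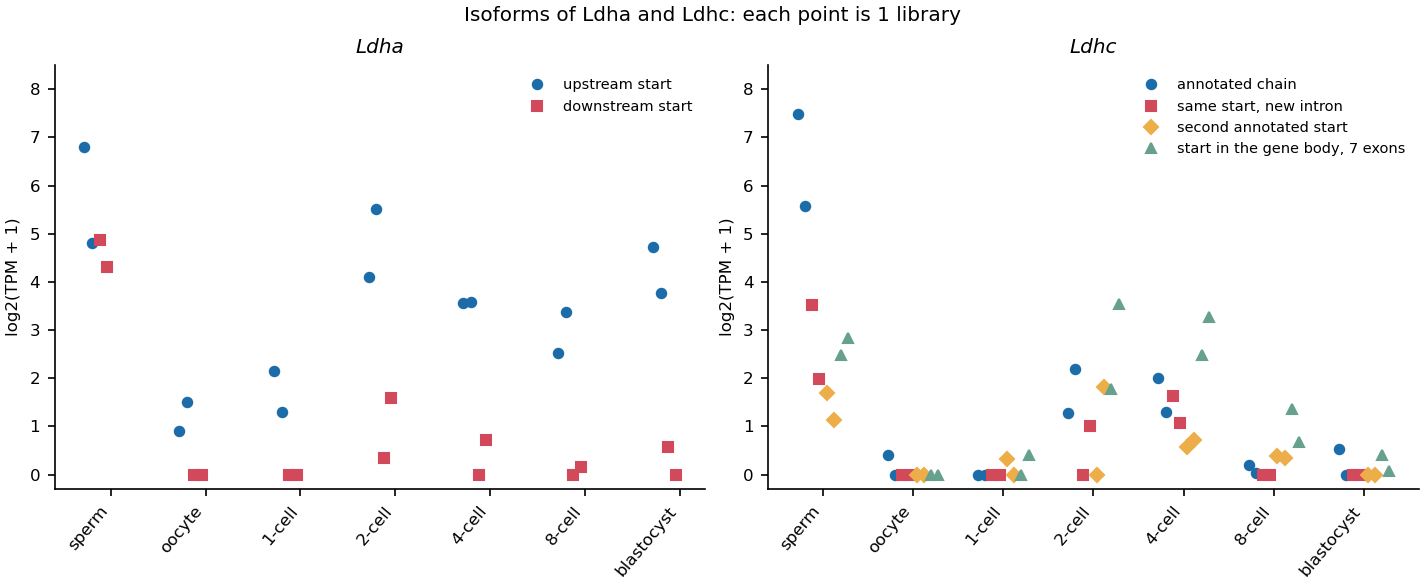
Log2(TPM + 1) of 2 Ldha isoforms and 4 Ldhc isoforms against stage, with 1 point per library. The downstream Ldha start stood above 4 in sperm alone, and the Ldhc form that starts in the gene body led at the 2-cell and 4-cell stages while the annotated form led in sperm.

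Transcripts of most shared somatic enzymes were higher in blastocysts than in oocytes, though Ldha and Hk1 had their highest embryonic means at earlier stages. Against the oocyte 6 of the 9 genes tested were higher in blastocysts and Ldhb was lower, where 53.4% of all 10000 genes tested passed, 35.4% as higher and 18% as lower. The median change of the 9 genes was 2.71 beside 0.82 over all genes. Quantile normalization moved the latter to 0.07, with 2659 genes higher and 2637 lower in place of 3543 and 1798. It changed the values of the 9 genes too, of which 5 were then called higher and 1 lower. The 2.71 belongs to the values before it and is not to be set against 0.07. Pgk2 did not pass the filter on low values in any comparison of embryos.

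Aldoa had the steepest rise. It was at 8.88 and 26.2 TPM in oocytes, 62.0 and 15.8 TPM in 1-cell embryos, 49.7 and 39.8 TPM in 2-cell embryos, 129 and 151 TPM in 4-cell embryos, 145 and 239 TPM in 8-cell embryos and 823 and 851 TPM in blastocysts. The blastocyst lay above every other stage, while the 4-cell and 8-cell stages overlapped. The difference of blastocyst and oocyte was 5.68 ± 0.78 (adjusted p = 5.32e-05). Of its 4 isoforms (chr7:126795234-126800751, minus strand) the annotated one of 9 exons, Aldoa-201, led at 774 and 834 TPM in blastocysts. A form of 3 exons with 1 unannotated intron was at 36.2 and 2.92 TPM in sperm, 28.2 and 17.7 TPM in 8-cell embryos and 32.8 and 0 TPM in blastocysts, so that its blastocyst replicates lay far apart. Its long read came from the 1-cell pool, yet the 1-cell libraries held it at 0 and 0.440 TPM. The sperm, 8-cell and blastocyst pools held no such long read, so its levels by stage are uncertain. The form of 10 exons, Aldoa-202, was at 11.7 and 12.7 TPM in blastocysts. A form of 9 exons with a start further upstream was at 20.3 and 5.72 TPM in sperm and at most 4.80 TPM elsewhere (2.85 ± 0.72 above the oocyte, adjusted p = 0.00497, beside 45.8% of 21568 transcripts that passed in that comparison, 29.3% as higher and 16.5% as lower in sperm).

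Gapdh was 3.65 ± 1.00 higher in blastocysts than in oocytes at its own locus (adjusted p = 0.00688) and 3.70 ± 0.83 higher with the copies (adjusted p = 0.00193), so that this rise did not turn on the copies. Pgk1 (chrX:106187100-106203699, plus strand) was at 7.60 and 3.63 TPM in oocytes, 10.8 and 7.71 TPM in 1-cell embryos, 9.54 and 41.7 TPM in 2-cell embryos, 14.3 and 20.3 TPM in 4-cell embryos, 7.04 and 14.4 TPM in 8-cell embryos and 61.7 and 26.2 TPM in blastocysts. In the order of the means each stage overlapped the next, except that oocytes lay below 1-cell embryos. Blastocysts exceeded oocytes by 2.71 ± 0.80 (adjusted p = 0.0106).

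Hk1 had its highest embryonic level at the 8-cell stage. It was at 0.216 and 0 TPM in oocytes, 0.276 and 0.132 TPM in 1-cell embryos, 1.36 and 3.11 TPM in 2-cell embryos, 10.9 and 8.64 TPM in 4-cell embryos, 20.7 and 22.3 TPM in 8-cell embryos and 3.11 and 9.66 TPM in blastocysts. Both 8-cell libraries lay above those of every other embryonic stage, but no step between successive stages passed. The blastocyst was 2.59 ± 0.62 above the oocyte (adjusted p = 0.00299), whereas the step from 8-cell to blastocyst of -1.76 ± 0.62 did not pass (adjusted p = 0.167).

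Pkm was at 4.89 and 35.9 TPM in oocytes, 117 and 23.3 TPM in 1-cell embryos, 36.9 and 147 TPM in 2-cell embryos, 64.8 and 63.6 TPM in 4-cell embryos, 20.2 and 72.9 TPM in 8-cell embryos and 193 and 374 TPM in blastocysts. Only the blastocyst stood clear of all other stages, 4.19 ± 1.04 above the oocyte (adjusted p = 0.00383). The replicates of the earlier stages differed too much to order them.

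Pkm makes the M1 or the M2 enzyme by splicing in either of a pair of exons, and the merged transcripts held M2 alone. Both exons are coding and 167 bases long, and they are shown with capitals at the 64 positions at which they differ. The M1 exon of Pkm-202 is at chr9:59675029-59675195 and the M2 exon of Pkm-201 at chr9:59675568-59675734 (mm10, plus strand).
M1 exon: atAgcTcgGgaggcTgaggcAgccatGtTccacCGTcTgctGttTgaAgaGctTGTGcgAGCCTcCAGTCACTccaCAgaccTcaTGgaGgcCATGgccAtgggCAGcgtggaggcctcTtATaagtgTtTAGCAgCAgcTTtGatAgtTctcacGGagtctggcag
M2 exon: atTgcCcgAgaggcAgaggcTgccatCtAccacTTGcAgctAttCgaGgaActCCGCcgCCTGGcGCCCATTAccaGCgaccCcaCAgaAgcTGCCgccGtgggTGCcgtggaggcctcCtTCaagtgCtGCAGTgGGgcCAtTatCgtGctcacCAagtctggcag
Of the 4 Pkm isoforms 3 held the M2 exon and none the M1 exon. The fourth held neither. The isoform with the introns of Pkm-201 led, at 78.6 and 182 TPM in sperm and 192 and 361 TPM in blastocysts. A form with a start further downstream, at chr9:59657232, was at 3.30 and 57.1 TPM in 2-cell embryos and at most 15.6 TPM elsewhere. A reference without the M1 exon gives no value for M1, so these levels do not say that it was absent.

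The calls against the oocyte were kept for Aldoa, Ldha, Ldhb and Hk1 under every alternative. Those of Gapdh and Pkm were lost without oocyte replicate 1 (2.46 with adjusted p = 0.0979 and 2.87 with adjusted p = 0.0632). That of Gapdh was lost without blastocyst replicate 1 too (2.99, adjusted p = 0.0744). That of Pgk1 was lost without blastocyst replicate 1 (2.11, adjusted p = 0.0918), without oocyte replicate 2 (2.26, adjusted p = 0.0786) and with quantile normalization (1.68, adjusted p = 0.0568). The 3 Pkm isoforms with the M2 exon overlap a second annotated gene on that strand, Gm49759. Without such transcripts Pkm differed by 0.34 between oocyte and blastocyst (adjusted p = 0.756) and by 0.20 between oocyte and sperm (adjusted p = 0.857).

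Between successive stages the share of these genes that passed was close to that of all genes. From the 1-cell to the 2-cell embryo 3 of 9 tested genes passed, with Ldha and Ldhc higher and Ldhb lower, where 32.3% of all 10000 genes passed, 26.1% as higher and 6.2% as lower. Quantile normalization gave 2 higher and 2 lower, the added gene being Gapdhs (-1.91, adjusted p = 0.0117), and moved the median of all genes from 0.72 to -0.12. Hk1 (1.37 ± 0.62, adjusted p = 0.105) passed without 2-cell replicate 1 (1.77, adjusted p = 0.0425). In limma no gene of the set passed between oocytes and 1-cell embryos (0.38% of all genes), 2-cell and 4-cell embryos (3.4%), 4-cell and 8-cell embryos (1.67%) or 8-cell embryos and blastocysts (3%). At an unadjusted p under 0.05 the number was 0, 1, 2 and 5 of 9 in these 4 steps, beside 920, 2453, 1568 and 1441 of all 10000 genes. The closest were Ldhb (-3.48 ± 0.99, adjusted p = 0.0967) and Ldhc (-2.32 ± 0.64, adjusted p = 0.0876) from 4-cell to 8-cell. Across all genes the replicates of the 4-cell and 8-cell stages correlated at 0.98 and 0.97. For these genes the 8-cell replicates were further apart, with Ldhb at 4.27 and 12.8 TPM and Ldhc at 2.04 and 0.885 TPM. With a fit on these 4 libraries alone Ldhb, Ldhc and Hk1 passed, with adjusted p of 0.00339, 0.00418 and 0.0329. Ldhb and Ldhc also passed without either 2-cell library. Neither passed with a 4-cell or 8-cell library left out, which leaves a single library in that stage. The changes were then -4.17 to -2.79 for Ldhb and -2.66 to -1.97 for Ldhc. At the last step Gapdh had the largest change (2.93 ± 1.00, adjusted p = 0.151), and it passed without either 2-cell library. With an 8-cell or blastocyst library left out it did not pass, at changes of 2.23 to 3.63.

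Other enzymes of the pathway were taken from a list of genes chosen by name. Of 22 further glycolysis genes, 14 had a merged transcript and 13 were tested in sperm against oocyte. There 11 were higher in sperm, 1 was lower and 1 did not pass, and with quantile normalization 7 were higher and 1 lower, where 53.6% of all genes passed. Their median change was 3.07 beside 0.90 over all genes. Pgam2, the muscle form of phosphoglycerate mutase, was at 232 and 43.8 TPM in sperm and 0 in both oocyte libraries (6.68 ± 0.85, adjusted p = 9.73e-06). Eno1b, a copy of enolase 1 whose reads may be shared with Eno1, was at 60.4 and 95.6 TPM against 0.0729 and 0.222 TPM, and Eno1 at 120.0 and 184 TPM against 2.75 and 15.6 TPM. Gpi1, glucose-6-phosphate isomerase, was at 56.5 and 13.0 TPM against 0.858 and 2.33 TPM.

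Bpgm was the exception, and an oocyte transcript like Ldhb. Its product makes 2,3-bisphosphoglycerate, known for its action on haemoglobin in red cells. It was at 1819 and 1462 TPM in oocytes, 1323 and 945 TPM in 1-cell embryos, 22.7 and 255 TPM in 2-cell embryos, 17.4 and 20.2 TPM in 4-cell embryos, 2.84 and 4.86 TPM in 8-cell embryos, 3.91 and 0.593 TPM in blastocysts and 22.8 and 5.12 TPM in sperm. Against the oocyte it differed by -7.08 ± 1.00 in sperm (adjusted p = 2.72e-05) and by -9.19 ± 0.96 in blastocysts (adjusted p = 7.46e-06), and 2-cell differed from 1-cell embryos by -3.84 ± 0.96 (adjusted p = 0.00773).

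From oocyte to blastocyst 8 of 12 tested genes of this list rose, 1 fell and 3 did not pass, where 53.4% of all genes passed and 35.4% as higher. Their median change was 4.29 beside 0.82 over all genes. Those with the largest rises were Pgam2 (5.32 ± 0.71), Pgam1 (4.61 ± 0.83), Eno1b (4.60 ± 0.68) and Tpi1, triose phosphate isomerase (4.45 ± 1.04). From 1-cell to 2-cell embryos 5 rose, among them Pgam2 (2.95 ± 0.71), Pgam1 (2.70 ± 0.83), Gpi1 (2.44 ± 0.73) and Eno1b (1.96 ± 0.68), 1 fell and 6 did not pass, where 32.3% of all genes passed, but with quantile normalization 1 rose and 1 fell. Pfkp, a phosphofructokinase, was the only one to pass from 2-cell to 4-cell embryos (-2.22 ± 0.50, adjusted p = 0.0357). In limma none passed in the remaining 3 steps, and quantile normalization called 2 higher in blastocysts than in 8-cell embryos.

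The other germ-line isozymes were low. The retrogene Aldoart2, a testis aldolase, was at 12.3 and 2.23 TPM in sperm and at most 0.690 TPM elsewhere. It is among the 11 genes counted as higher in sperm but entered that test only through the sperm libraries. Aldoart1, which matched Aldoa at 93.2% over 63.5% of its length, was at 4.78 and 0.893 TPM in sperm and at most 0.0772 TPM elsewhere, and did not pass the filter. Eno4 and Pdha2 had no merged transcript and were not analysed here.

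Of 13 genes of sugar, lactate and pyruvate transport and pyruvate entry, 9 had a merged transcript. In sperm against oocyte 4 were higher, 1 lower and 4 did not pass, a share close to the 53.6% of all genes. The following were named after their values were seen. Slc2a3, a glucose transporter, was at 28.8 and 90.5 TPM in sperm, 1.16 and 0.0875 TPM in oocytes, 14.2 and 21.01 TPM in 8-cell embryos and 170 and 109 TPM in blastocysts. It was the 1 gene of the list to pass from 8-cell to blastocyst (2.90 ± 0.74, adjusted p = 0.0490), and it rose by 6.48 ± 0.74 from the oocyte. The subunits of the mitochondrial pyruvate carrier went apart in sperm, with Mpc1 at 5.05 and 7.39 TPM against 56.8 and 176 TPM in oocytes, and Mpc2 at 86.2 and 698 TPM against 8.08 and 10.0 TPM (-3.83 ± 0.89 and 4.63 ± 0.92, adjusted p of 0.00185 and 5.25e-04). From 1-cell to 2-cell embryos 4 of the 9 were higher, where 32.3% of all genes passed, and with quantile normalization 2 were higher and 1 lower. From oocyte to blastocyst 5 of the 9 were higher, where 53.4% of all genes passed.

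Over the 14 libraries the genes nearest in pattern were sought among 9130 genes with at least 10 TPM in 2 libraries, by Pearson r of log2(TPM + 1). The points are pairs from 7 stages, and for sperm genes r rests on sperm against the rest. The epididymal gene Crisp1 and the leukocyte gene Lyz2 were also high in sperm alone. Such an r therefore does not tell germ cells from other cells in the sperm libraries. Pgk2 was nearest to Defb2, 1700008K24Rik and Ltf (all r = 1.00 to 2 decimals), Gapdhs to Akr1c19, Gm16541 and the protamine gene Prm2 (0.96, 0.95 and 0.95), and Ldhc to Dpep2, Spz1 and Gngt2 (0.99, 0.98 and 0.97). Ldhb was nearest to Ica1, Ehf and Ifitm3 (all 0.97), and Ldha to 9030025P20Rik, Hdhd3 and Gstm1 (0.97, 0.93 and 0.93). Among the 10 genes themselves Gapdhs and Pgk2 were the closest pair (0.93), and Aldoa and Ldhb the most opposed (-0.79).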

How the data were processed

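Polyadenylated RNA of pooled gametes and embryos was amplified by the Smart-seq2 protocol and sequenced as short reads, with 1 long-read (PacBio) pool per stage. The authors mapped long-read transcripts to mm10 with GMAP (the submitters' processing notes name GSNAP, STAR, Cufflinks and Salmon), merged those of all stages with Cuffmerge and quantified the short reads with Salmon. The deposited TPM tables hold 22612 merged transcripts, and further tables hold each stage's own transcripts and were normalized separately. TPM keeps no depth.

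Merged transcripts were assigned to GENCODE vM21 genes (mm10, as the files) by same-strand exon overlap, the gene with the longest overlap being taken, and summed. vM21 lists Aldoa under 2 gene IDs, and the one with transcripts was used. Genes with at least 1 TPM in 2 libraries of a fit were tested on log2(TPM + 1) with limma 3.58.1 (R 4.3.3, eBayes with trend) and Benjamini-Hochberg adjustment over all genes. Sperm against oocyte was fitted on 14 libraries and other comparisons on the 12 without sperm. A fold change on this scale understates changes of low genes. Ratios were compared by two-sided exact permutation tests. Copies were sought with blastn 2.17.0 (90% identity over 50% of the length) using vM21 sequences of the assigned genes. The 4279 merged transcripts without a vM21 gene were not searched. The scripts were tested on simulated data. Promoters are from RefSeq (GRCm38.p6) and exons from GENCODE.

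Named were the 10 genes, called genes of the glycolysis list (at most 5 per comparison), the related germ-line isozymes, isoforms of at least 10 TPM in a stage and the 3 nearest patterns of 5 genes. Members and lists were chosen with earlier results of these data known. The 8-cell replicates carry opposite numbers in titles and file names, and the titles were followed. Alternatives were another pseudocount, filter, normalization, fit, weighting, replicate block, transcript set and each library left out. Of the 6 cumulus cell markers that were listed to check the oocytes none had a merged transcript.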

Additional observations from a re-analysis of the deposited data

How the results depend on the processing

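The number of the 10 genes called stayed within 1.5 times under 140 of 149 alternatives. This says little for the steps at which the main count was 0, which were all steps but that from 1-cell to 2-cell. A kept count can also hide lost calls, as with 6 in place of 8 under quantile normalization for sperm against oocyte. From 4-cell to 8-cell the number went from 0 to 3 with a fit on the 4 libraries and with libraries weighted by stage, a setting chosen after seeing the data. Leaving out 1 library gave 5 to 8 genes for sperm against oocyte, where 5 remained without sperm replicate 2 or without oocyte replicate 1, 2 to 4 from 1-cell to 2-cell, 0 to 1 from 2-cell to 4-cell (Hk1 without 2-cell replicate 2), 0 to 2 from 4-cell to 8-cell and 0 to 1 from 8-cell to blastocyst (Gapdh without either 2-cell library), and 5 to 7 for oocyte against blastocyst. The direction of a member changed for Gapdh in sperm against oocyte, to 2.24 with the copies added, a setting chosen after seeing the data, and to 0.22 without oocyte replicate 2, while leaving out either library gave -2.16 to 0.22. The 4 ratios kept their side of the threshold except without a sperm library, where no p under 0.05 can be reached. Leaving out 1 library gave differences of 4.56 to 7.14 for Gapdhs, 5.88 to 6.23 for Pgk2 and 1.77 to 2.13 for Ldhc. Ratios from each stage's own transcripts were not run, because most pools lack one of the paired genes. The replicate numbers only share a number between stages. With a replicate block the number of members called was 8, 0, 3, 0, 0, 0 and 7 in the 7 comparisons, as without it, while all genes called went from 38 to 1 from oocyte to 1-cell, from 340 to 87 from 2-cell to 4-cell and from 167 to 89 from 4-cell to 8-cell. Deviations of same-numbered libraries correlated above 0.1 in 8 of the 21 pairs of stages, from -0.54 to 0.47. Own-stage and copy-added levels moved beyond the replicate SD in 17 of 58 cases, 11 of them those of Gapdh. The files give no depth, and with 2 pools per stage a gene that did not pass is not shown to be unchanged.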
